A study of Mus musculus with 6 samples.

Results

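The clustered histone genes were the genes of the deposited mouse RNA-seq table whose symbols begin with H1f, H2ac, H2bc, H3c or H4c and a number, or whose older symbols begin with Hist1, Hist2, Hist3 or Hist4. The RefSeq reference held 76 such genes, and 73 of the 25043 genes in the table were among them, 67 by current symbol and 6 by older symbol only. The libraries were 3 from wild type (WT) and 3 from Anp32e null primary mouse embryonic fibroblasts (MEFs), fibroblasts grown out of embryos, made from total RNA of cells below passage 8. ANP32E is a histone chaperone that takes the variant H2A.Z out of nucleosomes. The null cells came from Anp32e-/- embryos, and the study's methods give 3 biological replicates for cell culture work, while the number of embryos behind them is not given in the sources used here. One value per transcript was used, the authors' mean of the normalized count over all 6 libraries, so every level below belongs to WT and null cells together. A pooled mean has no spread between libraries and cannot show which genotype or which libraries the reads came from. No test was therefore made, and the order of 2 genes is given as a description. The question put to the data was which histone genes these fibroblasts used, by histone type and by gene cluster.

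Histone genes of this kind make the bulk of the protein that packages newly copied DNA. H2A, H2B, H3 and H4 form the core of the nucleosome, and H1 binds the linker DNA between cores. Most of these genes are small, have no intron, lie close together in clusters and are transcribed mainly in S phase. Their mRNAs end in a short stem-loop in place of a poly(A) tail, which stem-loop binding protein (SLBP) holds. A smaller set of histone genes, among them H1f0, H1f10, H3f3a, H3f3b and the H2A.Z genes, is transcribed outside S phase too and makes polyadenylated mRNA. Since the libraries were made from total RNA, mRNAs without a poly(A) tail could be sequenced.

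The 73 genes comprised 10 H1, 19 H2A, 19 H2B, 12 H3 and 13 H4 genes, of which 71 were protein coding and 2, H2af-ps2 and H2bu1-ps, were transcribed pseudogenes. Of the 73, 69 were counted on a transcript of 1 exon. In the mouse genome (build GRCm38, the build of mm10) the first block of chromosome 13, chr13:21715711-22043658, held 23 of the genes. The second block of that chromosome, chr13:23531044-23934913, held 31. The cluster on chromosome 3, chr3:96219885-96270192, held 10, and that on chromosome 11, chr11:58948911-58955192, held 3. The remaining 6 lay outside the clusters. They were the H1 genes H1f0 and H1f7 on chromosome 15 and H1f8 and H1f10 on chromosome 6, the H4 gene H4f16 on chromosome 6 and the H2A pseudogene H2af-ps2 at chr13:51200084-51203066. H2ac14, H2ac5-ps and H1f11-ps were in the reference and were not analysed here.

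The stem-loop is the sequence feature that sets these mRNAs apart, so its forms were read from the transcript sequences. A stem of 6 paired bases that began with GG, around a loop of 4 bases with T at its first and the third base, was searched for at the 3' end. It was present in 42 of the 49 genes whose reference sequence reached the annotated end of the transcript, and in 2 more whose sequence stopped short of that end. Over all 141767 GENCODE transcripts, 0.0811% held such a stem-loop in their last 160 bases. That share took every transcript, whether or not it reached its end. Its window also differed from that of most of the 49 genes, which was set around the annotated end. The 7 genes that reached the end and held none were H1f0, H1f8, H1f10, H2bc4, H2bc6, H2bc21 and H2bu1-ps. Of these, H1f0 and H1f10 are known for polyadenylated mRNA. H2bc4 and H2bc6 were read at the end of spliced forms with 742 and 1906 bases after the stop codon, of which the last 160 were searched. H2bc21 was counted on a 1-exon transcript of 2667 bases, of which the last 121 were searched. A stem-loop further upstream in H2bc4, H2bc6 or H2bc21 would not have been found. For the other 21 genes with no match, H2bc18, H1f1 and H2ac15 among them, the sequence stopped short of the transcript's end, so a missing match says nothing of the gene. The following lines give 1 gene for each of 5 forms, in DNA letters from 5' to 3' with stem and loop in capitals and 5 flanking bases on each side.
H1f4: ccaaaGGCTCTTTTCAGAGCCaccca
H2bc3: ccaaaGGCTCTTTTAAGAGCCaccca
H4c4: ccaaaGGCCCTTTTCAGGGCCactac
H4c2: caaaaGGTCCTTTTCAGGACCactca
H3c8: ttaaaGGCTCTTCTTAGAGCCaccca
The form of H1f4 was the most common, in 25 genes of types H1, H2A, H2B and H3, and that of H4c4 stood in 7 genes, all of type H4. The form of H2bc3 was found in 5 genes and that of H4c2 in 2, whereas that of H3c8 was found in H3c8 alone. The loop was TTTC in H1f4, H4c4 and H4c2, TTTA in H2bc3 and TCTT in H3c8. Forms not printed were that of H4c14, in 2 genes, and those of H4c1 and H2ac20, each in 1 gene.

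To check the label of the cells, marker genes were read first. Of 10 fibroblast markers, 9 were detected, which here means that the mean normalized count reached 10, and Vim (vimentin) was the highest at 330695. Lum (lumican) was the exception at 1.33. Dcn and Pdgfra stood at 144 and 628, and the other detected fibroblast markers at 4160 (Pdgfrb) or above. Over all genes, 14246 of 25043 were detected. Detected markers of other cells were 1 of 4 for epithelium, 2 of 4 for endothelium, 2 of 4 for blood, 2 of 5 for germ and pluripotent cells, and 0 of 4 for testis. The highest of these was Kdr, an endothelial receptor, at 2958, and the defining endothelial genes Pecam1 and Cdh5 stood at 4.47 and 3.54. Kdr thus stood above Dcn and Pdgfra, and the blood marker Cd68, at 257, stood above Dcn. All 12 S phase genes examined were detected, from Ccne2 (cyclin E2) at 1014 per kb to Rrm2, a subunit of ribonucleotide reductase, at 11643 per kb. Here and below, "per kb" is the mean normalized count divided by the length of the counted transcript in kb, the scale on which levels of different genes were set side by side. Detection, marker levels, counts past a mean, sums, shares of sums and the lowest genes of a type were read from the mean itself, which also depends on length.

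Most clustered histone genes were detected, and they were among the most abundant RNAs per kb. A mean of at least 10 was reached by 67 of the 73 genes, against 14246 of all 25043 genes. A mean of at least 1000 was reached by 51 and one of at least 10000 by 30, against 7203 and 900 of all genes. The median over the 72 histone genes with a known length was 14414 per kb. Over the 17323 genes with reads and a known length it was 131 per kb. The median histone gene thus lay at percentile 98.4 of all genes. Among the 100 genes of highest level per kb, 15 were clustered histone genes, namely 5 H1, 5 H4, 3 H2B, 1 H2A and 1 H3 genes. In all, 50 histone genes lay at or above percentile 90 and 24 at or above percentile 99. Their means summed to 921868, which was 1.80% of the sum over all genes. Short transcripts yield few reads, and only 3 histone genes were among the 100 genes of highest mean when length was left out.

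**Figure D1:**
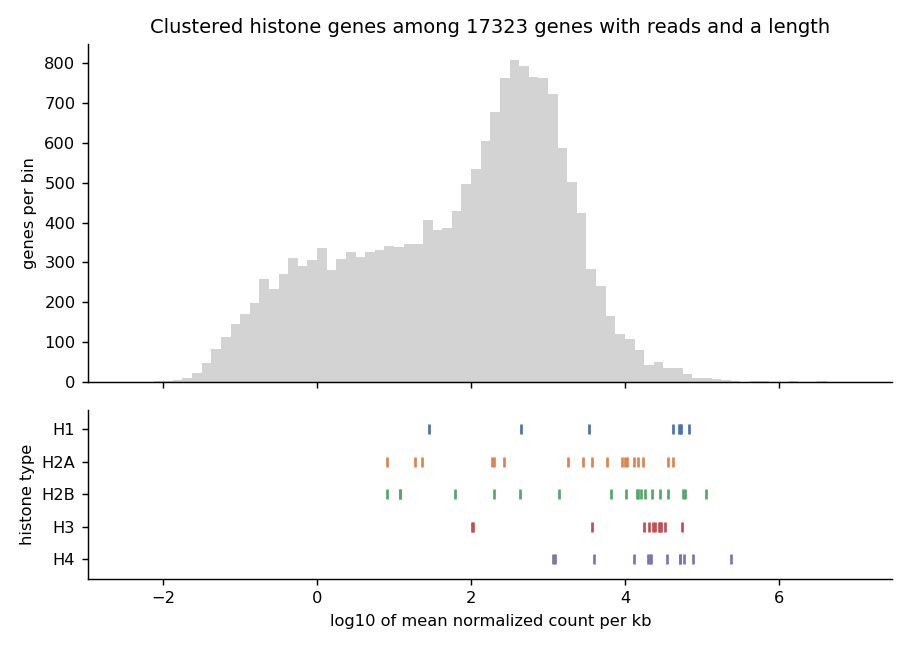
The upper panel plots the number of genes per bin of level (x axis, log10 of the mean normalized count per kb) for 17323 genes with reads and a length, and in the lower panel each vertical mark is 1 clustered histone gene by type, without the 2 genes at 0. Most marks stand at the right edge of the distribution, where 50 histone genes lie at or above percentile 90, and a smaller number of every type but H4 lie in its middle or left part.

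The 5 types differed less in their medians than the genes within a type differed from one another. The median was 23618 per kb for H3, 22560 for H1, 21698 for H4, 14124 for H2B and 4817 for H2A. H2A kept the last place and H2B the one before it under each alternative computed, while the order of H1, H3 and H4 changed with it. The gap was not stable, since per 1000 windows of 150 bases found in no other gene H2A stood at 25023, H2B at 27410 and H1 at 29926. Without the genes outside the clusters the H1 median was 51628 per kb. Of the summed means, H4 took 26.2%, H2B 23.9%, H1 23.02%, H3 16.7% and H2A 10.3%, on the scale that is not divided by length. Within H3, all 12 genes were detected and 10 had a mean of at least 1000. The H2B genes, in contrast, ran from 8.04 to 114103 per kb.

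**Figure D2:**
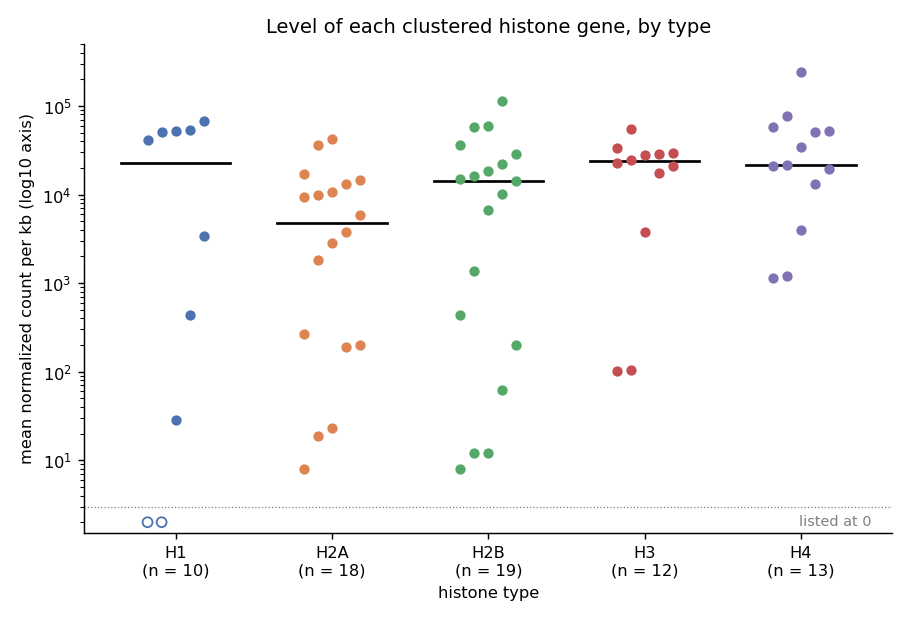
Each point is 1 clustered histone gene, by type (x axis), at its mean normalized count per kb (y axis, log10), with a black line at the median of the type and open circles for genes listed at 0. H2A has the lowest median at 4817 per kb, H4c4 is the highest point at 239972 per kb, and both genes at 0 are H1 genes.

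Among the linker histone genes, those of the chromosome 13 clusters that are used in dividing somatic cells formed a narrow group. H1f4 (chr13:23621777-23622558) had a mean of 52911, with a 95% Poisson interval of 52728 to 53095 for counting error, or 67661 per kb. H1f3 stood at 54073 per kb and H1f1 at 52390 per kb, with H1f2 at 50866 and H1f5 at 41676 per kb. These 5 were the 5 highest of the type. H1f0, the H1 of cells that have left the cycle, had a mean of 7899 and 3445 per kb, and H1f10, a divergent linker histone, had a mean of 467 and 440 per kb. The testis linker histone H1f6 (older symbol Hist1h1t) lies in the second block of chromosome 13 but had a mean of 20.9 (interval 17.4 to 24.8) and 28.4 per kb. The spermatid gene H1f7 and the oocyte gene H1f8, both outside the clusters, were listed at 0. A count of 0 over 6 libraries left room for a mean of up to 0.611 by the exact Poisson interval.

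One gene took a larger share of the summed means in H4 than in any other type. H4c4 (chr13:23581568-23581969) had the highest level of all clustered histone genes, a mean of 96469 (interval 96221 to 96717) or 239972 per kb. This 1 gene held 39.95% of the summed means of the 13 H4 genes and 10.5% of those of all 73 genes. H4c8 followed at 76342 per kb and H4c3 at 57919 per kb. H4f16, which lies alone on chromosome 6, stood at 21244 per kb, close to the median of the type. The lowest were H4c17 with a mean of 465, H4c18 with 494 and H4c9 with 1611, all in the first block of chromosome 13, and no H4 gene was below detection.

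The H3 genes of the second block were close in level. H3c2 (chr13:23752345-23752840) was highest at a mean of 27127 (54692 per kb), then H3c3 at 33607 and H3c6 at 29226 per kb. There, all 7 H3 genes lay between 17480 and 54692 per kb. The lowest were H3c14 and H3c15 of the chromosome 3 cluster, both with a mean of 67.9, followed by H3c10 with 1825. H3c13, of that same cluster, stood at 24273 per kb.

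H2B genes included the second highest gene of all. H2bc18 (chr3:96269700-96270192) had a mean of 56253 (interval 56064 to 56442), 114103 per kb, which was 25.6% of the summed means of the type. H2bc3 stood at 59982 per kb and H2bc15 at 57111 per kb. The lowest were H2bc1, older symbol Hist1h2ba and known from testis, with a mean of 3.47 (interval 2.15 to 5.31), and H2bc23 and H4bc24, both with a mean of 4.59. H4bc24 counts as H2B here by its older symbol, Hist1h2br. For 5 H2B genes the table held several transcripts, whose exons can share reads. H2bc4 had 2 at 21165 and 19061, H2bc6 had 3 between 16404 and 16620, H2bc22 had 2 at 646 and 638, and H2bc23 had 2 at 4.59 and 2.41. H4bc24 had the same 2 values as H2bc23. H2bc4 and H2bc6 were counted on spliced forms of 1156 and 2506 bases, so that their 18309 and 6632 per kb would be higher if most reads came from a shorter form. H1f8 had 2 transcripts, both at 0.

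H2A genes had the lowest median. H2ac15 (chr13:21753377-21753912) was highest, with a mean of 22652 and 42261 per kb. H2ac20 of the chromosome 3 cluster followed at 36291 and H2ac13 at 16928 per kb. Below detection was only H2ac1, older symbol Hist1h2aa and known from testis, with a mean of 3.84 (interval 2.41 to 5.71). Next came H2ac23 and H2ac24, both with a mean of 10.4. H2af-ps2, whose older symbol is Hist1h2al, had a mean of 10993 (interval 10910 to 11077), but no length and hence no level per kb could be given. The mean pools both genotypes, so how its reads were divided between WT and null cells is not shown by this value. The 3 germline-named genes H1f6, H2ac1 and H2bc1 were thus among the lowest of their types.

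By cluster, the second block of chromosome 13 had the highest median, 22963 per kb, and 29 of its 31 genes were detected. Its highest gene was H4c4, and the 2 below detection were H2ac1 and H2bc1. The first block had a median of 10639 per kb, with 21 of 23 detected and H2bc15 as its highest gene. The chromosome 3 cluster had a median of 1012 per kb, made up of 4 genes with a mean of at least 10000 and 6 below 1000, with none between. On chromosome 11, H2aw stood at 14703 per kb while H2bu1-ps and H2bu2 stood at 431 and 201 per kb. Among the 5 genes outside the clusters with a length, the median was 440 per kb and H4f16 was highest.

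Low genes lay side by side. In the first block, 7 neighbours from H2bc22 to H4bc24 stood at 12.0 to 1378 per kb, whereas the 11 genes before them ran from 3741 to 57111 per kb. On chromosome 3, the 5 neighbours H2bc21, H3c15, H2ac19, H2ac18 and H3c14 stood at 62.7 to 202 per kb, between H2ac20 at 36291 and H4c14 at 51375 per kb. H2bc21, the lowest of these per kb, had a mean of 167 on a counted transcript of 2667 bases. In the second block only H1f6 and H2ac7, besides the pair H2ac1 and H2bc1, lay below 1000 per kb, and each of those 2 had neighbours above it.

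**Figure D3:**
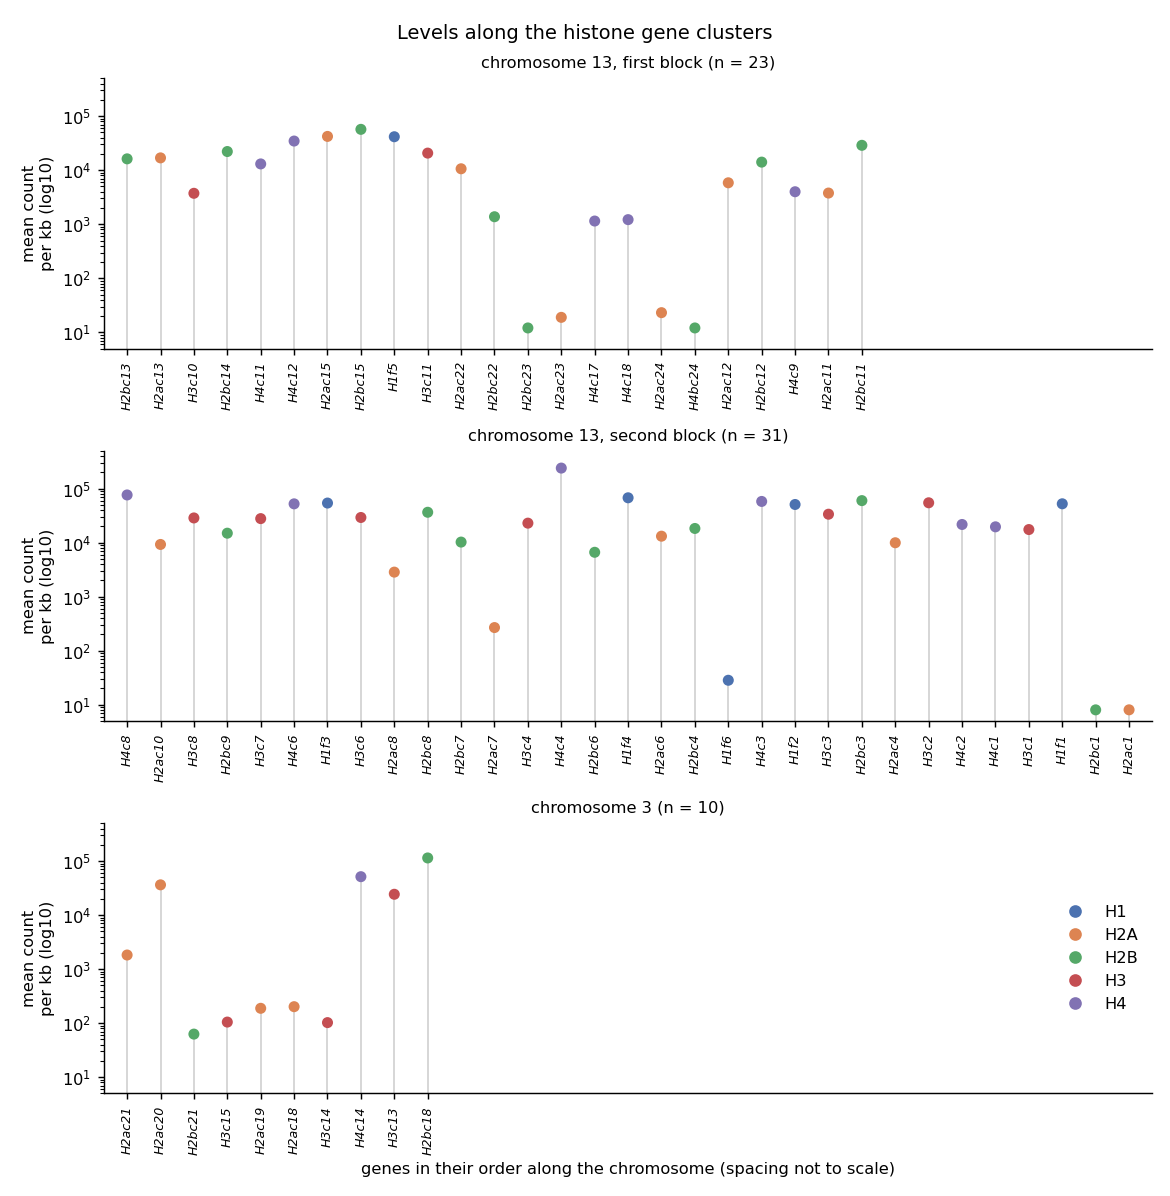
Each point is 1 clustered histone gene at its mean normalized count per kb (y axis, log10), in the order of the genes along 3 clusters (x axis, not to scale) and colored by type. Runs of low points are seen in the first block of chromosome 13, from H2bc22 to H4bc24, and in the middle of the chromosome 3 cluster, while the second block holds few low points.

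Copies of these genes can be so alike that a read fits more than one of them, which bears on the levels of the genes that share sequence. For each of 72 genes the share of windows of 150 bases, the read length, that occurred in no transcript of a gene elsewhere was computed from GENCODE sequences. This share was 100% for all 10 H1 genes, whose sequences differ most. The median was 82.6% for H2B, 68.6% for H4, 47.6% for H3 and 38.3% for H2A. These shares belong to the GENCODE sequence found, which for some genes covered only part of the counted length. Coverage was lowest for H2ac15 at 73.3% and was 76.3% for H4c12. The uncovered part was not searched. Of the 9 genes with a share under 10%, 8 had a mean under 1000, the exception being H3c10 at 1825, and their median was 102 per kb. From 10 to under 50%, 3 of 15 genes had a mean under 1000, from 50 to under 90%, 2 of 22, and at 90% or more, 9 of 26. Those 9 were H1f6, H1f7, H1f8, H1f10, H2ac1, H2ac21, H2bc21, H2bu1-ps and H2bu2. The highest gene, H4c4, had a share of 100%, as had H2bc18, H4c14 and H2ac15. Over the 72 genes the Spearman correlation of level per kb and share was 0.27, a description only, since genes of a type share sequence.

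Within both low runs, 4 pairs of genes with hardly any sequence of their own also had equal values. H2ac18 and H2ac19 were both listed at 112.112, H3c14 and H3c15 both at 67.9127, H2ac23 and H2ac24 both at 10.4435, and H2bc23 and H4bc24 both at 4.58828. The share of windows held by no other gene was 4.91% for H2ac18, 2.91% for H3c14, 0.656% for H2ac23 and 0% for the other 5 of these 8 genes. How reads that fit several genes were treated when counting is not stated beyond default settings, and their part in the low values was not tested. The levels of these 8 genes are therefore uncertain. H4c17 and H4c18, in the first of these runs, had shares of 14.2% and 15.2% and means of 465 and 494. H2bc21, in the low run on chromosome 3, had a share of 100%.

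**Figure D4:**
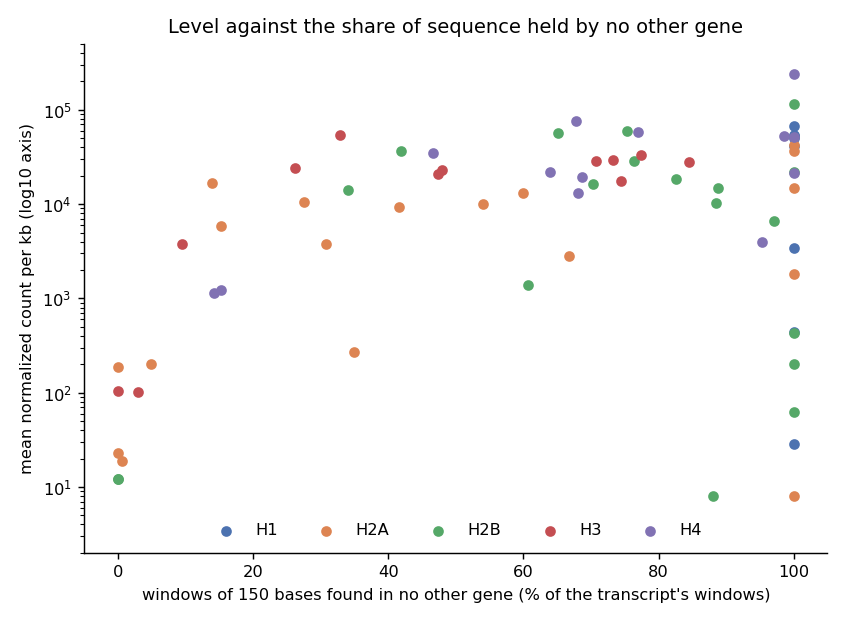
Each point is 1 clustered histone gene with reads, colored by type, at the share of its windows of 150 bases that occur in no other gene (x axis, percent) and its mean normalized count per kb (y axis, log10). The 9 genes with a share under 10% all lie at or below 3741 per kb, and genes at 100% span the range from 8.05 to 239972 per kb.

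Many H2A and H2B genes are arranged head to head and share the DNA between their starts. There were 13 such pairs with starts 164 to 281 bases apart (median 192). H2A was the higher gene per kb in 7 pairs and H2B in 6. The ratio of H2B to H2A per kb ran from 0.00173 to 38.2, with a median of 0.999. That median is the ratio of H2ac1 and H2bc1, both below detection with means of 3.84 and 3.47, so it does not show balanced levels. At the low end, H2ac20 stood at 36291 and H2bc21 at 62.7 per kb, and both had a share of own windows of 100%. H2bc21 had a mean of 167 and was counted on a transcript of 2667 bases. Its level per kb and the ratio would be higher if most reads came from a shorter form. At the high end, H2ac7 stood at 268 and H2bc7 at 10246 per kb, with shares of 34.97% and 88.5%. Close to equal were H2ac13 and H2bc13 at 16928 and 16238 per kb, and H2ac15 and H2bc15 at 42261 and 57111 per kb. Their shares of own windows were 13.9% and 70.3% for H2ac13 and H2bc13, and 100% and 65.1% for H2ac15 and H2bc15. H2ac1 and H2bc1 were both at the bottom, at 8.05 and 8.04 per kb. Over the 13 pairs the Spearman correlation of the 2 levels was 0.50, given as a description.

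**Figure D5:**
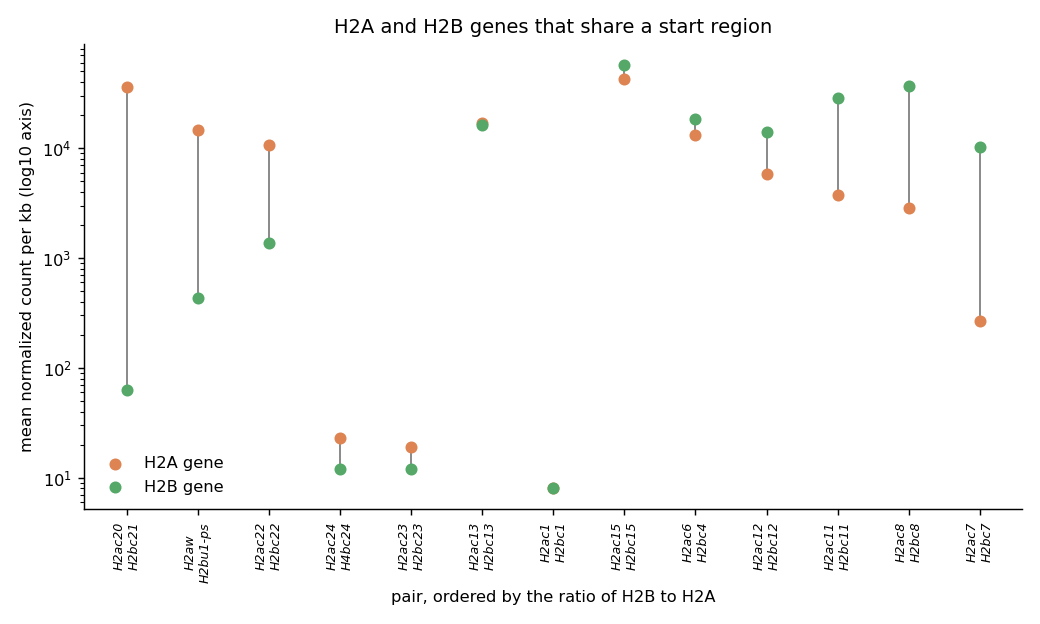
For each of 13 head-to-head pairs (x axis, ordered by the ratio of H2B to H2A) the orange point is the H2A gene and the green point the H2B gene, at the mean normalized count per kb (y axis, log10). The points lie far apart in H2ac20 with H2bc21 and in H2ac7 with H2bc7, and nearly coincide in H2ac13 with H2bc13 and in H2ac1 with H2bc1.

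The start regions of pairs that differed and of pairs that did not are shown next, with those of the highest gene, since the partners of a pair share them. Each window runs from 250 bases before to 50 bases after the start of the named gene (RefSeq, GRCm38.p6). The H2ac1 window thus stops short of the start of H2bc1, which lies 281 bases from that of H2ac1. Capitals mark 4 motifs searched on both strands, namely CCAAT, which NF-Y binds, TATAAA, which the TATA-binding protein binds, the octamer ATTTGCAT, which Oct factors bind, and AAACACA, known from H1 promoters. None of the 4 contains another. The windows are H2ac20 with H2bc21 (chr3:96220831-96221130, minus strand), H2ac7 with H2bc7 (chr13:23574131-23574430, plus strand), H2ac15 with H2bc15 (chr13:21753863-21754162, minus strand), H2ac1 with H2bc1 (chr13:23934187-23934486, plus strand) and H4c4 (chr13:23581318-23581617, plus strand).
H2ac20: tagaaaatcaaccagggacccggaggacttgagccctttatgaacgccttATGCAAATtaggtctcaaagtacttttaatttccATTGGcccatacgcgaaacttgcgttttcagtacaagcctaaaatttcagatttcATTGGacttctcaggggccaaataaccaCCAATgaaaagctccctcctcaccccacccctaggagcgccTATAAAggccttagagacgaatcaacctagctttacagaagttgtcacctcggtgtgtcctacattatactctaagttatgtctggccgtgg
H2ac7: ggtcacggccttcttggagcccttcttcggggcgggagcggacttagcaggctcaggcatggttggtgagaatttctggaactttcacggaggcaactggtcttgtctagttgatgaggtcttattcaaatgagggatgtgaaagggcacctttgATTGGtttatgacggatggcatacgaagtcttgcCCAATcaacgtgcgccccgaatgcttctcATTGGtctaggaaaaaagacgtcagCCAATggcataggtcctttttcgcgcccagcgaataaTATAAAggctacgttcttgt
H2ac15: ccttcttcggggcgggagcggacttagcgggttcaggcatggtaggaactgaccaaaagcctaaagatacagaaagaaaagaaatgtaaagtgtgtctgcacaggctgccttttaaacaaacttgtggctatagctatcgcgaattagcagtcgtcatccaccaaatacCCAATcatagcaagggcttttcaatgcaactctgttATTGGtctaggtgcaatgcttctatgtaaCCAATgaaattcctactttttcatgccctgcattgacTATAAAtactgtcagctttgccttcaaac
H2ac1: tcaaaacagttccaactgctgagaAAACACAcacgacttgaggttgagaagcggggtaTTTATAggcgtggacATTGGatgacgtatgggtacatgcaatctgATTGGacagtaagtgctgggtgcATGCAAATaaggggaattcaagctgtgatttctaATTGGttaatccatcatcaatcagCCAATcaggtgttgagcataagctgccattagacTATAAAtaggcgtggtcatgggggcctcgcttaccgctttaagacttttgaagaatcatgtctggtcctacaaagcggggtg
H4c4: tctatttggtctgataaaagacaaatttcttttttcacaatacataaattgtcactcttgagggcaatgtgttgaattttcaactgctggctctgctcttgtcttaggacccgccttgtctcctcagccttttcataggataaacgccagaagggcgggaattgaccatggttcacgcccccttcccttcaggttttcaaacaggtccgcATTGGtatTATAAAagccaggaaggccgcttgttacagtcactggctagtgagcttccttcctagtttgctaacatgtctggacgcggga
CCAAT was found in 54 of 66 histone gene windows (81.8%), against 37.9% of 27025 windows over all genes, and it was in all 18 H2A, 16 H2B and 10 H3 windows but in 3 of 12 H4 windows. TATAAA was found in 53.0% of the histone windows and 14.2% of all windows. ATTTGCAT was found in 7 of 18 H2A and 6 of 16 H2B windows, in no H1, H3 or H4 window and in 1.75% of all windows. Windows of head-to-head partners overlap and both strands were searched, so 1 site can count for both genes. This was so for ATTTGCAT in H2ac8 and H2bc8, H2ac12 and H2bc12, and H2ac1 and H2bc1. For TATAAA it was so in these pairs and in H2ac7 and H2bc7, H2ac15 and H2bc15, and H2ac22 and H2bc22. CCAAT sites were shared by partners too, as in H2ac7 and H2bc7, and the AAACACA site by H2ac1 and H2bc1. The motif shares are thus not counts of separate sites. Read from the start of the named gene, every H2B octamer match was ATTTGCAT and every H2A octamer match was ATGCAAAT, its form on the other strand. AAACACA was found in 5 of 10 H1 windows and 7.14% of all windows. By level, the median was 14414 per kb for the 54 genes with CCAAT and 8540 per kb for the 12 without. It was 22187 per kb for the 9 genes with AAACACA and 13174 per kb for the 57 without. For TATAAA it was 13174 per kb in the 35 genes with the motif and 14703 per kb in the 31 without, and for ATTTGCAT 14124 against 13081 per kb. These medians were not tested, and types differ in both motifs and level. H2ac1, listed among the lowest genes, held a match to each of the 4 motifs in its window.

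The genes that serve the clustered histone genes were present too. Of 19 factors of histone mRNA transcription and 3' end formation, 18 were detected, with a median of 521 per kb. Srrt, which links the cap-binding complex to RNA processing, was highest per kb at 3380 among the 17 with a known length, which leaves out Cpsf3 and Cstf2, and Slbp stood at 1918 per kb. Rnu7, the small nuclear RNA that pairs with histone pre-mRNA, had a mean of 0.169, which corresponds to 1 read. Whether the libraries captured RNAs this small was not tested, so its level in the cells is not known from this value. All 14 histone chaperones were detected. The 12 with a known length ran from Hira at 521 per kb to Ssrp1, a subunit of FACT, at 8434 per kb, while Nap1l1 and Ipo4 had no length and means of 25213 and 8503. Of the 11 histone genes of the replication-independent list, which include H1f0 and H1f10, all were detected, with a median of 3041 per kb. H2az1, one of the genes for H2A.Z, was highest at 17860 per kb, above the median of the H2A and H2B types and below that of H1, H3 and H4, and H1f10 was lowest.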

How the data were processed

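RNA was sequenced from 3 WT and 3 Anp32e null MEF libraries as paired reads of 150 bases from stranded total RNA libraries. Per the labels and the study's methods, reads were aligned to mm10 with STAR, counted on RefSeq transcripts with featureCounts and scaled with DESeq2. The deposited table has 42361 transcripts. The column used is a signal, the authors' mean over 6 libraries of counts divided by size factors, with no values per library, SD or n. The 5 other columns hold the authors' comparison of the genotypes (fold change, standard error, statistic, p and adjusted p) and were not used, so no difference between genotypes is given. Row identifiers were matched to RefSeq GRCm38.p6 genes (158 transcripts unmatched), and the transcript with the highest mean stood for each gene. Lengths were RefSeq spans for genes with a single 1-exon transcript and GENCODE M21 lengths otherwise.

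The 6 lowest values above 0, 0.147 to 0.183, were taken as 1 read in 1 library each, which gives size factors from 0.909 to 1.13. Their sum, 6.04, turned a mean into reads for the exact 95% Poisson intervals, which cover counting error only. Depth per library is unknown. How reads in overlapping genes were counted is not stated beyond default settings. Within genes, 8067 transcripts had the value of another transcript of their gene.

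Values were computed in Python 3.11.15 with pandas 2.3.3 and scipy 1.17.1, and the sequence searches were tested on simulated data. Named were the 3 highest genes per kb and the 3 lowest means of each type, genes at 0, genes outside the clusters, germline-named genes, the highest gene of each cluster and genes with several transcripts, and of each list the highest and lowest gene. Genes named for sequence, pairing or neighborhood were added after their values were seen. The members and lists were chosen with earlier results of these data known.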

Additional observations from a re-analysis of the deposited data

How the results depend on the processing

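No paired analysis was possible because the table holds 1 mean over all 6 libraries, and for the same reason no replicate was left out in turn. The number of detected genes, 67 at a mean of at least 10, was 71 at 1, 64 at 50 and 67 with transcripts summed. Of 46 alternative values, 16 moved by no more than counting error or, for counts, 1.5 times, and 30 moved more. The 30 include all medians not divided by length or given per 1000 windows. Their unit differs from the per kb medians they were set against, so these moves say little about stability. Without division by length the medians were 20495 for H1, 3056 for H2A, 7681 for H2B, 11879 for H3 and 9764 for H4, and by cluster 5054 (first block of chromosome 13), 16132 (second block), 512 (chromosome 3), 200.4 (chromosome 11) and 4183 (outside). Per 1000 windows found in no other gene they were 29926, 25023, 27410, 63014 and 67808 for H1, H2A, H2B, H3 and H4, so that H2A came close to H2B and H1. For some genes the windows covered only part of the counted length, which limits these values. Without the genes outside the clusters H1 stood at 51628 and H4 at 28190 per kb. With means of at least 10 only, H1 stood at 46271, H2A at 5854 and H2B at 15602 per kb, and the clusters at 13081 (first block), 27861 (second block) and 3445 (outside). Summing transcripts, which counts shared reads repeatedly, gave 14965 per kb for H2B. The median histone gene lay at percentile 98.2 of protein-coding transcripts.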
